A study of Homo sapiens with 5 samples.

Results

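The transcription factor p53 responds to DNA damage and other stress by binding response elements in or near its target genes and raising their transcription. Its targets halt the cell cycle, feed back on p53 itself, promote apoptosis and adjust metabolism. In stratified epithelium some of them are also driven by the related factor p63, so their level there need not follow p53 alone. A list of well-known targets was drawn up with earlier results of these data known, and those with a named probe set on the array were kept. Of the 10 listed genes, 5 had one: SFN, CCNG1, TIGAR, SESN1 and TP53INP1. They are 5 of the 14812 genes with a named probe set in the series, each with 1 probe set. CDKN1A, MDM2, ZMAT3, FAS and PERP are not named in the array annotation used and were not analysed here.

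Gene expression was measured with Affymetrix Gene 2.0 ST arrays in TE7, a human esophageal carcinoma cell line. The CDH26 clones carried pMIRNA1-puro-CDH26, which expresses the cadherin CDH26, and the control clones carried pMIRNA1-puro-control. There were 3 CDH26 clones and 2 control clones, 1 array each; every clone was grown from a single cell to confluence and then kept for 24 h in RPMI with 1.8 mM calcium. Clones of 1 construct therefore differ by clonal origin as well as by array error, and the number of arrays limits the precision.

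The deposited values are logarithms centred on the 2 control clones. They are read here as log2, although their base is not recorded, and they hold differences between clones without any expression level. TE7 identity could not be checked against marker genes for that reason, and levels of different genes cannot be compared. The control clones are by construction equal and opposite around 0. CDH26 stood at 2.87, 3.01 and 2.63 in the CDH26 clones, against 0.01 and −0.01 in the control clones. Control clone 1 differed from control clone 2 by at least 1 log2 unit in 183 genes. CDH26 clones 1 and 2 differed by that much in 9, CDH26 clones 1 and 3 in 75, and CDH26 clones 2 and 3 in 62. Between groups, control clone 1 differed from CDH26 clones 1, 2 and 3 in 202, 153 and 33 genes. Control clone 2 differed from them in 324, 344 and 157. Control clone 1 thus differed from CDH26 clone 3 in fewer genes than CDH26 clones 1 and 2 did.

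Upstream sequences of the members are shown to set their response-element letters beside the values. RefSeq promoter windows (GRCh38.p14; 250 bases before to 50 after a transcript start) were found for 4 of the 5 members, and TP53INP1 had none. They were searched for the p53 half-site, a palindrome that reads alike on both strands: 3 purines, a C, 2 bases that are A or T, a G and 3 pyrimidines. An exact match was present in 6.63% of all 35116 windows. Among the members 1 of 4 genes had one, SESN1, in 1 of its 3 windows; of all genes with 3 windows, 16.8% had at least 1. The 100 bases before the start are given below for 3 genes, 5′ to 3′ on the gene's own strand, with the exact half-site in capitals. SFN and CCNG1 had the smallest p-values among the members, and SESN1 is the member with the match. The SFN stretch lies at chr1:26863049-26863148 on the plus strand, that of CCNG1 (the first of its 2 windows) at chr5:163437471-163437570 on the plus strand, and that of SESN1 (the third window) at chr6:109008989-109009088 on the minus strand.
SFN: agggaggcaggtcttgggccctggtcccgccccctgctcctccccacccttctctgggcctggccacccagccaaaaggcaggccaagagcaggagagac
CCNG1: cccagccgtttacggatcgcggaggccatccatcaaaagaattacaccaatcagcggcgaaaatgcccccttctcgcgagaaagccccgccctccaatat
SESN1: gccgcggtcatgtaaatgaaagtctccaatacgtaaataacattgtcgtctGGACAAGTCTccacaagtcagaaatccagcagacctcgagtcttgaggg
The SESN1 match, GGACAAGTCT, covers positions −49 to −40 relative to that start. With at most 1 mismatch outside the fixed C and G, SFN also had a match, AGGCAGGTCT at −96 to −87, but 45.1% of all windows hold such a match. The absence of an exact match from the SFN, CCNG1 and TIGAR windows says only that the exact letters are not in these stretches; response elements further upstream or in introns were not searched.

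The comparison asked whether p53 target genes differed between CDH26 and control clones. None of the 5 members passed the adjusted threshold of 0.05 (limma, Benjamini-Hochberg over all 14812 genes), and 0 genes passed it in the whole table, a background of 0%. CDH26, the gene the construct carries, had the smallest p of all genes and still an adjusted p of 0.250 (limma). A member's failure to pass is therefore no sign that it was unchanged. At an unadjusted p under 0.05, 2 members were higher in the CDH26 clones, SFN and CCNG1, and 0 were lower; over all genes 3.51% were higher and 4% lower by that rule, 1113 genes or 7.51% in all. By mean value, 4 of the 5 members were higher in the CDH26 clones and 1, TIGAR, was lower, against 47.9% higher and 49.5% lower over all genes. All 3 CDH26 clones exceeded both controls in 2 members, beside 8.98% of all genes, and below both in 1, beside 9.93%. The members' median log2 difference was 0.20, and that of all genes was 0. An exact permutation of 3 clones against 2 cannot give a p below 0.1, so single genes were tested only in the fit across all genes.

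SFN encodes 14-3-3 sigma, which holds cells in G2 by sequestering mitotic kinases and is made mainly in stratified epithelium. It stood at 0.72, 0.67 and 0.50 across CDH26 clones 1, 2 and 3, against 0.13 and −0.13 in controls 1 and 2. All 3 CDH26 clones lay above both control clones, with a gap wider than the distance between the controls. The log2 difference was 0.63 ± 0.11 (SE; 95% interval 0.31 to 0.94), a 1.55-fold difference, with an unadjusted p of 0.00541 and an adjusted p of 0.626 (limma). In absolute size it exceeded the difference of 97.7% of all genes. It was 0.50 against control clone 1 alone and 0.75 against control clone 2 alone.

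Listed markers of basal squamous cells, a cell type of stratified epithelium, mostly ran the same way as SFN by mean value. SFN is not itself in that list. Of 25 listed basal squamous markers 14 were measured. Of these, 13 had a positive mean difference, beside 47.9% of all genes. In 9 the CDH26 clones all exceeded both controls, beside 8.98% of all genes. The markers' median value was 0.48, 0.48 and 0.25 across CDH26 clones 1, 2 and 3, against 0.19 and −0.19 in controls 1 and 2. In SFN and in this list CDH26 clone 3 was the lowest of the CDH26 clones and control clone 2 the lowest of all. The part of this shift in the SFN value was not tested; TP63, which encodes p63, had no named probe set and was not analysed.

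CCNG1 encodes cyclin G1, which recruits a phosphatase to MDM2 and so takes part in the feedback on p53. It stood at 0.21, 0.29 and 0.24 across CDH26 clones 1, 2 and 3, against 0.12 and −0.12 in controls 1 and 2. The CDH26 clones lay close together, with an SD of 0.04 (n = 3), and all above the control clones, but the lowest of them was nearer to control clone 1 than the control clones were to each other. The log2 difference was 0.25 ± 0.08 (SE; 95% interval 0.01 to 0.48), or 1.19-fold, with an unadjusted p of 0.0426 and an adjusted p of 0.626 (limma). Against control clone 1 alone it was 0.13 and against control clone 2 alone 0.37, so the size of this difference depends on the control clone.

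**Figure D1:**
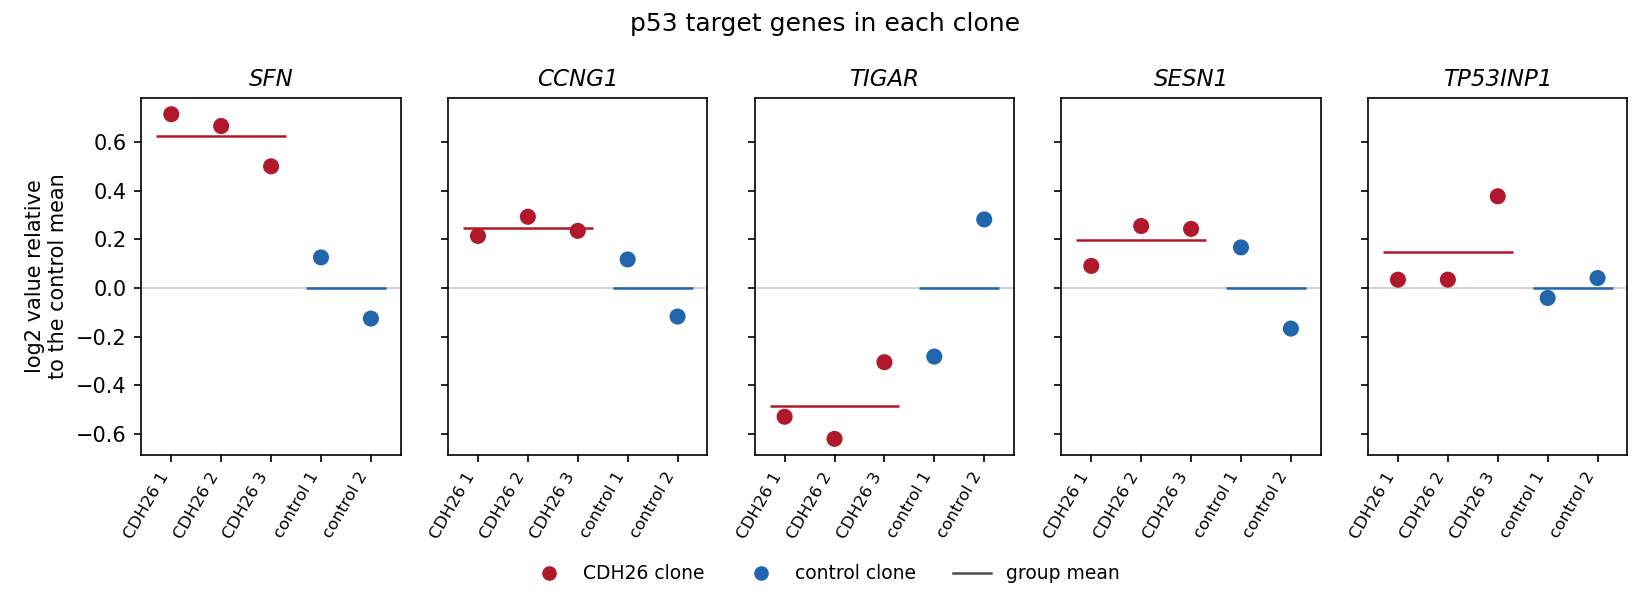
Value of each of the 5 measured p53 target genes in each clone, as log2 relative to the control mean; points are clones (3 CDH26, red; 2 control, blue) and lines are group means. SFN and CCNG1 exceed both control clones in each CDH26 clone, TIGAR lies below both, and the groups overlap in SESN1 and TP53INP1.

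TIGAR encodes a fructose-2,6-bisphosphatase that lowers glycolytic flux and favours the pentose phosphate pathway, and it was the only measured member with a lower mean in the CDH26 clones. It stood at −0.53, −0.62 and −0.31 across CDH26 clones 1, 2 and 3, against −0.28 and 0.28 in controls 1 and 2. All CDH26 clones lay below both controls, but CDH26 clone 3 was only just below control clone 1. The log2 difference was −0.49 ± 0.21 (SE; 95% interval −1.09 to 0.12), with an unadjusted p of 0.0879 and an adjusted p of 0.626 (limma). The control clones were 0.56 apart, further than in 95.2% of all genes. Against control clone 1 alone the difference was −0.20, and against control clone 2 alone it was −0.77.

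SESN1 encodes sestrin 1, a stress-induced inhibitor of mTORC1 signalling, and its promoter window with the half-site is printed above. It stood at 0.09, 0.26 and 0.24 across CDH26 clones 1, 2 and 3, against 0.17 and −0.17 in controls 1 and 2. CDH26 clone 1 fell between the control clones, so the groups overlapped. The log2 difference was 0.20 ± 0.13 (SE; 95% interval −0.16 to 0.55), with an adjusted p of 0.626 (limma). It was 0.03 against control clone 1 alone and 0.36 against control clone 2 alone. The other sestrin genes, named as its paralogs after their values were seen, had larger standard errors. SESN2 had a log2 difference of −0.41 ± 0.32 (SE) and SESN3 one of 0.85 ± 0.56. In SESN2 the CDH26 clones stood at −0.33, −0.43 and −0.46, all between controls 1 and 2 at −0.48 and 0.48. In SESN3 the CDH26 clones ran from 0.30 to 1.64, against 0.47 and −0.47 in controls 1 and 2. By mean value over both controls the 3 sestrin transcripts had no common direction, but every CDH26 clone lay above control clone 1 in SESN2. None of the 3 passed the adjusted threshold.

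TP53INP1 encodes a stress-induced protein that promotes p53-dependent apoptosis and autophagy. It stood at 0.03, 0.03 and 0.38 across CDH26 clones 1, 2 and 3, against −0.04 and 0.04 in controls 1 and 2. CDH26 clone 3 stood apart, while the other CDH26 clones lay between the control clones and held the same value to within 1e-05. Such ties are common in the table: only 46.3% of genes had no tie between arrays. The log2 difference was 0.15 ± 0.13 (SE; 95% interval −0.23 to 0.52), with an adjusted p of 0.679 (limma), and it was 0.03 without CDH26 clone 3. In SFN the same clone was the lowest of the CDH26 clones, so the members did not order the CDH26 clones alike.

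The control clones differed between themselves in a way that touched 4 of the 5 members. Their distance was 0.25 in SFN, 0.24 in CCNG1, 0.56 in TIGAR, 0.33 in SESN1 and 0.08 in TP53INP1, and it was larger than in 77.1% of all genes for each of these but TP53INP1. In SFN, CCNG1, SESN1 and TIGAR control clone 1 lay on the side of the CDH26 clones, and in TP53INP1 control clone 2 did. With control clone 1 left out, 3 members were higher and 1 lower at an unadjusted p under 0.05, beside 10.5% and 9.95% of all genes in that fit, and the median difference was 0.36. With control clone 2 left out, 1 was higher and 0 lower, beside 6.25% and 6.58% of all genes, and the median was 0.13. No member passed the adjusted threshold in either fit, which take the spread of the remaining control clone from that of the CDH26 clones.

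**Figure D2:**
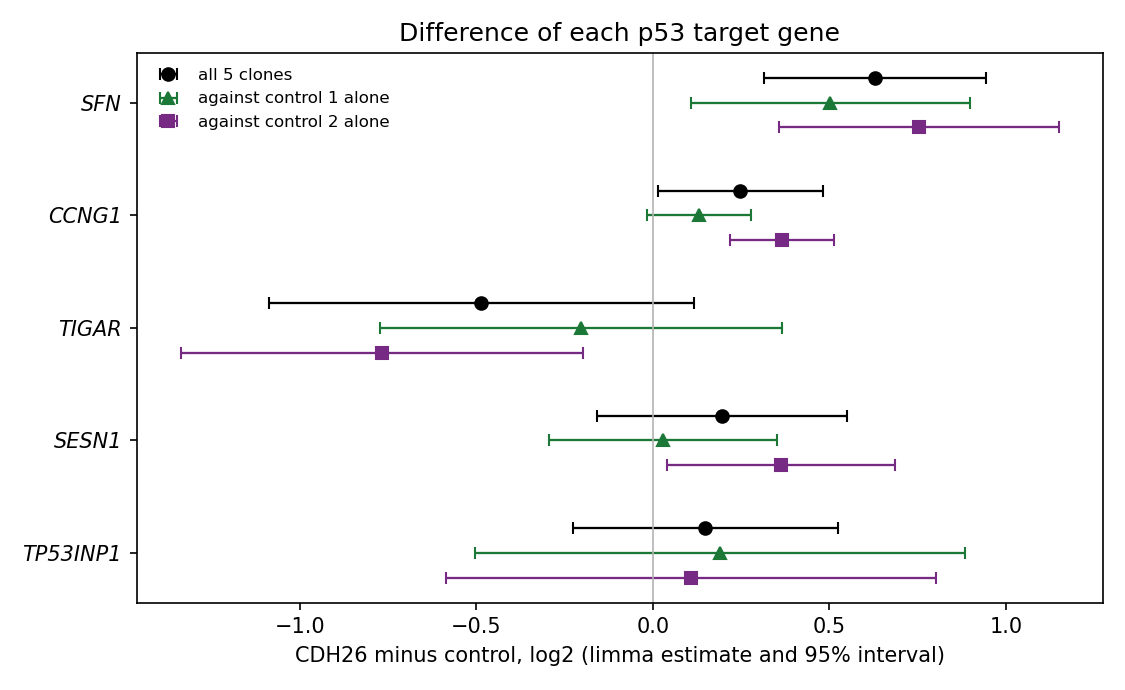
Log2 difference of each member, CDH26 minus control, with its 95% interval from limma, using all 5 clones (circles), control clone 1 alone (triangles) or control clone 2 alone (squares). The direction of each gene is the same in all 3 fits, and the SESN1 and TIGAR estimates move most, to 0.03 and −0.20 against control clone 1 alone.

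Other targets of p53 were then examined in lists arranged by role. Of 106 genes listed 65 were measured, and 0 passed the adjusted threshold; 5 were higher and 1 lower at an unadjusted p under 0.05, beside 3.51% and 4% of all genes. Without control clone 1 these counts turned to 8 higher and 13 lower (10.5% and 9.95% of all genes), without control clone 2 they were 7 and 3 (6.25% and 6.58%), and without CDH26 clone 1, 2 or 3 they were 4 and 0, 3 and 1, and 7 and 4. Over all 14812 genes the fits without CDH26 clone 1, 2 or 3 gave 327 and 403, 277 and 248, and 609 and 822. By mean value 30 of the other targets were higher and 35 lower, beside 47.9% and 49.5% of all genes. The median log2 difference of these targets was −0.04. In 8 of them the CDH26 clones all exceeded both controls, beside 8.98% of all genes. In 3 they all lay below both, beside 9.93%. Unlike the 5 members, of which 4 were higher by mean value, these genes were split nearly evenly. This contrast was not tested, and the members and lists were chosen with earlier results of these data known.

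Among genes of cell cycle and growth arrest 7 of 12 were measured, with a median of −0.12; 2 had a higher mean and 5 a lower one. E2F7, an atypical E2F that represses cell cycle genes, had a log2 difference of 0.31 ± 0.10 (SE), with 0.41, 0.38 and 0.15 across CDH26 clones 1, 2 and 3, against 0.05 and −0.05 in controls 1 and 2. GADD45A had no named probe set. In the feedback and signalling list 3 of 10 genes were measured, all 3 with a higher mean, and their median was 0.39. Only in 1 of the 3 did all CDH26 clones exceed both controls, beside 8.98% of all genes. PPM1D, the phosphatase that switches p53 signalling off, was not among the measured genes.

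Of the 26 apoptosis and death receptor genes 20 were measured, 7 with a higher and 13 with a lower mean, and the median was −0.07. BAX, the pore-forming effector of mitochondrial apoptosis, stood at −0.07, −0.09 and −0.07 across CDH26 clones 1, 2 and 3, against −0.07 and 0.07 in controls 1 and 2. Its log2 difference was −0.07 ± 0.05 (SE; 95% interval −0.20 to 0.06). BBC3, which encodes the BH3-only protein PUMA, had a difference of −0.11 ± 0.11, and its groups overlapped. Against control clone 1 alone BAX was at −0.0080 and BBC3 at −0.02, and against control clone 2 alone they were at −0.14 and −0.19. PMAIP1, which encodes the BH3-only protein NOXA, stood at 0.95, 0.68 and 0.17 across CDH26 clones 1, 2 and 3, against −0.30 and 0.30 in controls 1 and 2. CDH26 clone 3 fell between the control clones, and the difference was 0.60 ± 0.33 (limma, adjusted p = 0.626), or 0.90 against control clone 1 alone and 0.30 against control clone 2 alone.

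TLR3, a receptor for double-stranded RNA that is induced both by p53 and by interferon, had the largest positive difference of the other targets. It stood at 1.25, 1.12 and 0.64 across CDH26 clones 1, 2 and 3, against 0.07 and −0.07 in controls 1 and 2. The log2 difference was 1.00 ± 0.22 (SE; 95% interval 0.39 to 1.61), with an unadjusted p of 0.0105 and an adjusted p of 0.626 (limma). All CDH26 clones lay well above both control clones. Interferon-response genes ran the same way by mean value. Of 33 listed 24 were measured, and 22 had a positive mean difference, beside 47.9% of all genes. In 10 the CDH26 clones all exceeded both controls, beside 8.98% of all genes. The interferon genes' median was 0.68, 0.61 and 0.21 across CDH26 clones 1, 2 and 3, against −0.22 and 0.22 in controls 1 and 2. The part of these genes in the TLR3 value was not tested.

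In the DNA repair and nucleotide supply list 5 of 11 genes were measured, and the median was 0.01. FBXO22, an F-box protein, had a log2 difference of 0.18 ± 0.04 (SE), with 0.21, 0.21 and 0.13 across CDH26 clones 1, 2 and 3, against −0.0037 and 0.0037 in controls 1 and 2. Of 21 metabolism and redox genes 11 were measured, with a median of −0.04. ACER2, an alkaline ceramidase of the Golgi, had the smallest p of all the other targets, 0.00199 unadjusted and 0.626 adjusted (limma). It stood at 0.38, 0.52 and 0.38 across CDH26 clones 1, 2 and 3, against 0.01 and −0.01 in controls 1 and 2, a difference of 0.43 ± 0.06.

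GDF15, a secreted stress cytokine of the TGF-beta superfamily and a common readout of p53 activity, showed how far the control clones could lie apart. It stood at −0.81, −1.13 and −1.09 across CDH26 clones 1, 2 and 3, against −0.90 and 0.90 in controls 1 and 2. Control clone 1 was within the range of the CDH26 clones, and control clone 2 lay far above every other clone. The log2 difference of −1.01 ± 0.60 (SE; limma, adjusted p = 0.626) was −0.11 against control clone 1 alone and −1.91 against control clone 2 alone. The control clones were further apart here than in 99.8% of all genes.

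Of 26 targets of adhesion, secretion and epithelium 19 were measured, with a median of 0.01. EPHA2, an ephrin receptor of epithelia, was the 1 target lower at an unadjusted p under 0.05. It stood at −0.78, −0.96 and −0.60 across CDH26 clones 1, 2 and 3, against −0.22 and 0.22 in controls 1 and 2, a log2 difference of −0.78 ± 0.19 (SE; limma, unadjusted p = 0.0149, adjusted p = 0.626). All CDH26 clones lay below both controls. TSKU, the secreted proteoglycan tsukushi, had a difference of 0.22 ± 0.07.

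**Figure D3:**
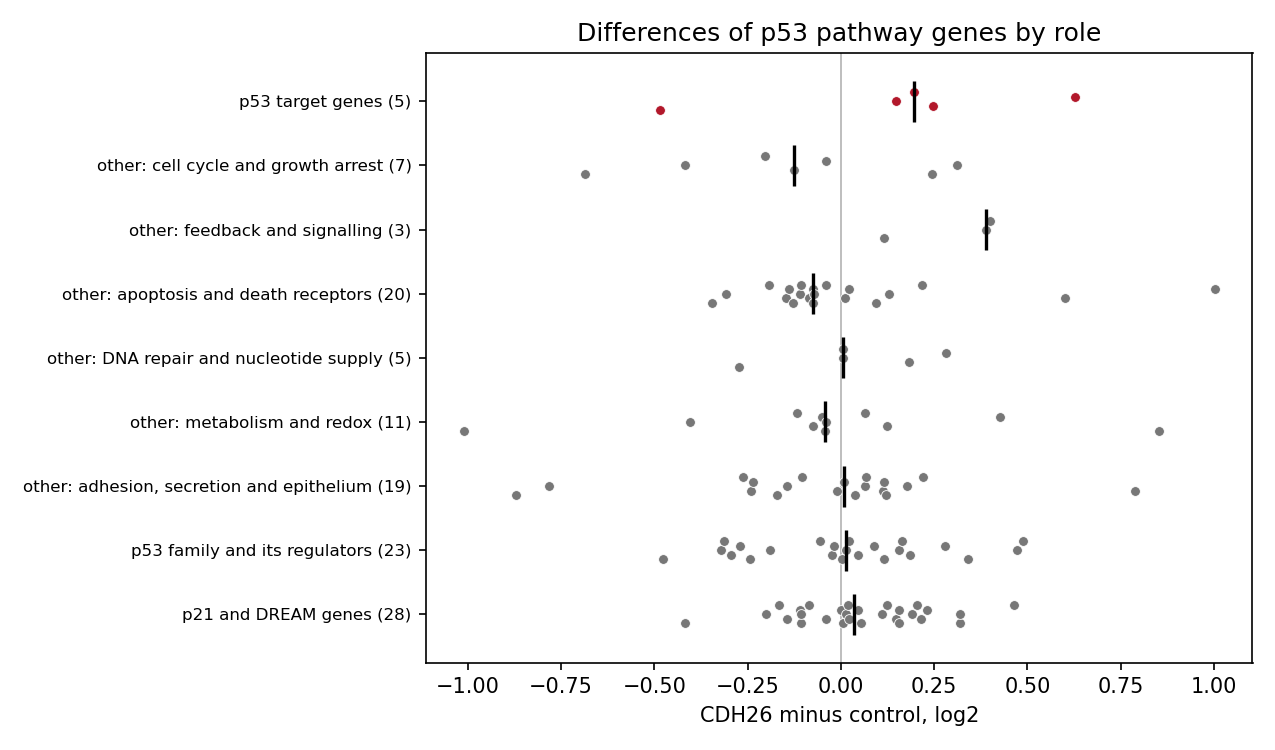
Log2 difference, CDH26 minus control, of every measured gene in the p53 lists, 1 point per gene and 1 line per list with the number measured in brackets; black bars are list medians. The 5 members (red) have a median of 0.20, and the lists of other targets have medians from −0.12 to 0.39 around the all-gene median of 0.

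Without control clone 1, 4 of the other targets passed the adjusted threshold, all lower in the CDH26 clones, beside 1.26% of all genes (0.675% lower and 0.581% higher): PLK2, ATF3, TRAF4 and DRAM1, named after their values were seen. PLK2, a polo-like kinase, stood at −0.68, −0.70 and −0.67 across CDH26 clones 1, 2 and 3, against −0.44 and 0.44 in controls 1 and 2. Its difference was −1.12 without control clone 1 (limma, adjusted p = 0.0406) and −0.68 with all clones (adjusted p = 0.626). ATF3 and TRAF4 had the same value in all 3 CDH26 clones, −0.26 for ATF3 and −0.13 for TRAF4, so their own spread without control clone 1 was 0. The standard error of 0.01 in each came only from the variance that limma shares across all genes. In ATF3, TRAF4 and DRAM1 every CDH26 clone lay between the control clones.

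Upstream of the targets, 23 of 36 genes of the p53 family and its regulators were measured, and 0 passed the adjusted threshold. By mean value 13 were higher and 10 lower, and the median log2 difference was 0.01; 0 were higher and 2 lower at an unadjusted p under 0.05, beside 3.51% and 4% of all genes. Without control clone 1 these counts were 6 and 2 (10.5% and 9.95% of all genes), and without control clone 2 they were 1 and 4 (6.25% and 6.58%). TP73, which encodes the related factor p73, stood at 0.12, 0.15 and 0.22 across CDH26 clones 1, 2 and 3, against 0.22 and −0.22 in controls 1 and 2. MDM4, the partner of MDM2 that inhibits p53, stood at 0.26, 0.42 and 0.16 in the CDH26 clones, against 0.28 and −0.28 in the control clones. Both genes overlapped between groups, with differences of 0.17 ± 0.15 and 0.28 ± 0.21 (SE) that came to −0.050 and −0.0046 against control clone 1 alone, and to 0.38 and 0.57 against control clone 2 alone.

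The 2 regulators lower at an unadjusted p under 0.05 were CREBBP and USP7. CREBBP, an acetyltransferase that acts as a coactivator of p53, had a log2 difference of −0.31 ± 0.06 (SE; limma, unadjusted p = 0.0078, adjusted p = 0.626). It stood at −0.27, −0.40 and −0.26 across CDH26 clones 1, 2 and 3, against 0.05 and −0.05 in controls 1 and 2, with all CDH26 clones below both. USP7, a deubiquitinase of MDM2 and p53, had a difference of −0.27 ± 0.09 and did not overlap either. In the whole list of 23 measured regulators the CDH26 clones all lay below both controls in 6, beside 9.93% of all genes. They all exceeded both in 4, beside 8.98%. PML, a nuclear body protein that is also induced by interferon, stood at 0.65, 0.52 and 0.30 across CDH26 clones 1, 2 and 3, against −0.22 and 0.22 in controls 1 and 2. Its difference was 0.49 ± 0.19 (adjusted p = 0.626), or 0.71 against control clone 1 alone and 0.27 against control clone 2 alone.

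Downstream, the p53 target CDKN1A encodes p21, which represses cell cycle genes through the DREAM complex; CDKN1A was not measured, but 28 of 30 listed genes of that class were. None passed the adjusted threshold, 18 had a higher and 10 a lower mean, and the median log2 difference was 0.03. At an unadjusted p under 0.05 (limma), 3 were higher and 2 lower, beside 3.51% and 4% of all genes. Against control clone 2 alone 18 had a higher and 10 a lower mean, with a median of 0.05. Against control clone 1 alone 15 had a higher and 13 a lower mean, with a median of 0.01. BUB1, a kinase of the spindle checkpoint, stood at 0.46, 0.47 and 0.46 across CDH26 clones 1, 2 and 3, against −0.05 and 0.05 in controls 1 and 2. Its difference of 0.46 ± 0.04 (SE) had an unadjusted p of 0.000236 and an adjusted p of 0.508 (limma). It was 0.51 against control clone 1 alone and 0.42 against control clone 2 alone. MCM6, a subunit of the replicative helicase, had a difference of 0.32 ± 0.07 and CDC25A, a phosphatase that activates cyclin-dependent kinases, one of −0.42 ± 0.09. These 3 genes were taken for the smallest p in the list. In them the CDH26 clones did not overlap the control clones, and the directions were opposite. In the whole list the CDH26 clones all exceeded both controls in 5 of 28 genes, beside 8.98% of all genes. They all lay below both in 2, beside 9.93%.

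**Figure D4:**
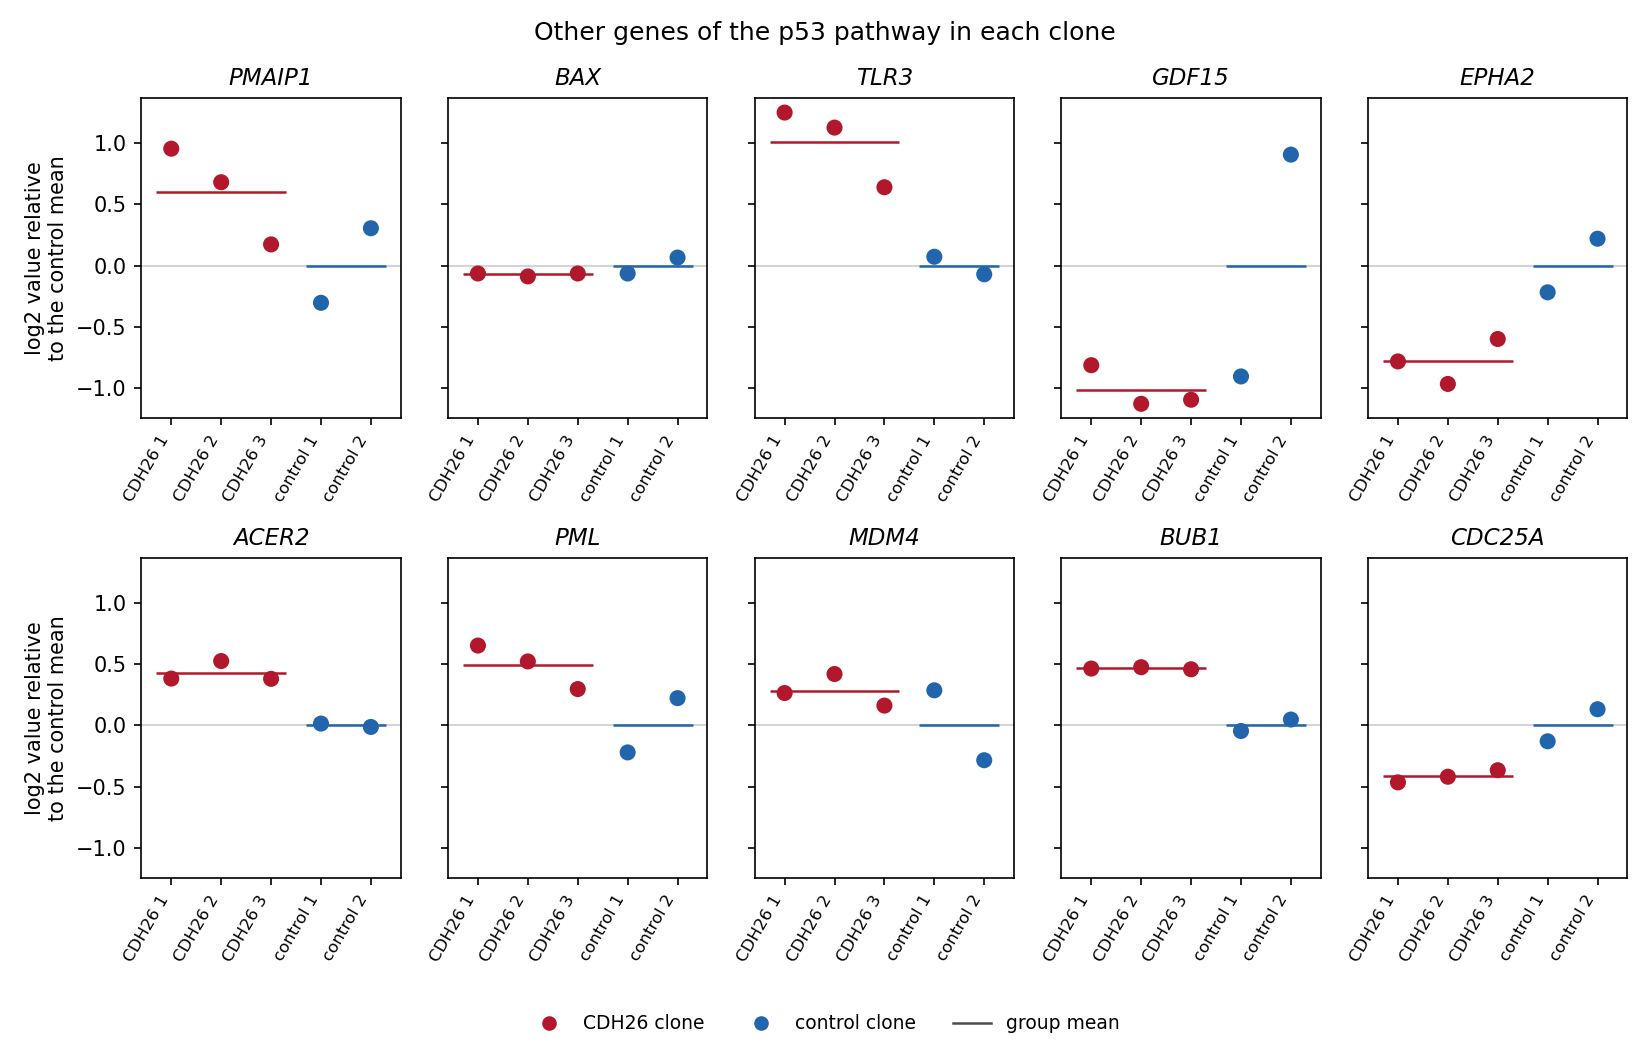
Values of 10 other genes of the p53 pathway in each clone, as log2 relative to the control mean; points are clones (3 CDH26, red; 2 control, blue) and lines are group means. TLR3, ACER2, PML and BUB1 exceed both control clones in each CDH26 clone, EPHA2 and CDC25A lie below both, and in GDF15 control clone 2, at 0.90, stands above all other clones.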

How the data were processed

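The values are the authors' deposited table of log values, read as log2 and centred by the authors on the control mean: the 2 control values of every probe set summed to at most 1e-06 in size. Per the submitters' processing notes the software was Affymetrix Expression Console; its version, summarisation method and genome build were not given in the sources used here. GEO's platform annotation named 15835 of 44607 probe sets with 1 gene each, 0 with several, and left 28772 unnamed. Values were averaged over the probe sets of a gene, and all 14812 genes entered 1 limma fit (version 3.58.1, R 4.3.3) with lmFit, eBayes and a single group term. Two-sided p-values were adjusted by Benjamini-Hochberg over every gene tested, and the threshold was 0.05. The fit was tested on simulated data. Clones were grouped from their labels. All p-values measure the spread between these clones.

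The members and lists were chosen with earlier results of these data known. Genes named in the text were the members, CDH26, a set of well-known pathway genes where measured (among them TP63, TP73, MDM4, BAX, BBC3, PMAIP1, GDF15, GADD45A and PPM1D), and those with the smallest unadjusted p: 6 of the other targets, 3 regulators and 3 genes of the p21 and DREAM list. Lists for simple epithelium, fibroblast, leukocyte and endothelium had 7, 4, 4 and 4 measured genes, with median log2 differences of −0.22, 0.04, 0.03 and −0.01. Alternatives were each clone left out, a replicate block, array weights, robust variance, array centring, natural logarithms, a threshold of 0.1, single probe sets and only genes without ties. A brightness filter and a variance trend need levels, which the table does not hold, and were not run. Figures were drawn with matplotlib 3.10.9.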

Additional observations from a re-analysis of the deposited data

How the results depend on the processing

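With 3 against 2 clones and no expression levels, differences of the size seen in most members cannot be resolved. Each member kept the sign of its difference under every alternative that gave it a value (14, or 13 for TP53INP1). Most of these alternatives leave a member's estimate unchanged or only rescale it, so they cannot turn its sign. The replicate block gave the same estimates as leaving out CDH26 clone 3. The sign was therefore tried only by leaving out single clones and by array weights. The number of members called was 0 throughout, also with the replicate block. Nothing in the labels says that equal replicate numbers mark pairs. Deviations of same-numbered clones correlated at −0.198 for number 1 and −0.205 for number 2, but the deviations of 2 control clones are mirror images, so these are not separate checks, and pairing could not be judged from them. Both the fit with the block and the fit without it called 0 genes. With each clone left out, the members' median difference ran from 0.13 to 0.36, the number of other p53 targets called from 0 to 4, of regulators from 0 to 0, of p21 and DREAM genes from 0 to 1, of all genes from 0 to 186, and the CDH26 difference from 2.75 to 2.94. TP73 and MDM4 turned sign without control clone 2, at −0.050 and −0.0046; with each clone left out they ran from −0.050 to 0.38 and from −0.0046 to 0.57. When only the 6857 genes without ties were tested, 1 was called, CDH26, at 2.84 (limma, adjusted p = 0.0106); its unadjusted p was 1.55e-06 there and 3.06e-05 over all genes, so the variance fit differed as well as the number of genes. If the deposited values are natural logarithms, the SFN difference is 0.91 log2 units and that of TIGAR −0.70.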
